A study of Mus musculus with 12 samples.

Results

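The genes of the tumor necrosis factor (TNF) ligand and receptor superfamilies were examined in RNA sequencing libraries of mouse dorsal skin. Members were taken by their symbols, as every gene named Tnfsf or Tnfrsf followed by a number, together with Tnf, Lta, Ltb, Ltbr, Fas, Fasl, Cd40, Cd40lg, Cd70, Cd27, Eda, Edar and Ngfr. This rule found 45 of the 36400 genes in the deposited table. Of these, 18 encode ligands, 26 encode receptors and 1, Tnfsf13os, is an antisense transcript that the symbol rule also takes in. FPKM, the unit of the levels below, are fragments per kilobase of transcript scaled to the number of mapped fragments. The 39 members whose average across the 12 libraries was 0.1 FPKM or more were tested, and Cd40lg, Cd70, Fasl, Tnfrsf8, Tnfsf18 and Tnfsf4 lay below that limit.

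The mice were female BALB/c animals, 6 weeks old at the start, with 3 skin libraries in each of 4 groups, from skin taken on day 30. The backs of all mice were clipped and depilated before the first application and clipped again late in the course, and Solvent mice then had only the acetone and olive oil vehicle. The DNCB, scMSC and scivMSC groups were all sensitized with 1% and then challenged with 0.5% 1-chloro-2,4-dinitrobenzene (DNCB), a contact allergen used to model atopic dermatitis. The scMSC and scivMSC mice also had 2000000 human umbilical cord mesenchymal stem cells (MSCs) per injection, given 4 times between days 13 and 25. In the scMSC group all 100 µL of a dose were injected subcutaneously beside the lesion, whereas scivMSC mice had 50 µL there and the other 50 µL intravenously, by the tail vein. No group had DNCB and an injection without cells, so effects of the cells and of the injection cannot be told apart. The labels number the libraries of a group but do not say whether each came from 1 mouse, so the p-values measure the spread between these libraries.

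TNF superfamily ligands are mostly membrane proteins of immune cells that act as trimers, either on the cell surface or after being cut off by a sheddase. Their receptors recruit TRAF or death domain adaptors, through which they switch on NF-kB, provide co-stimulation to lymphocytes or start apoptosis and necroptosis. In skin the family includes the main inflammatory cytokine TNF, the ectodysplasin system that forms hair follicles, and receptors that bind a ligand without passing on a death signal.

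The total of estimated counts per library ran from 63877153 to 75134001. Keratinocyte markers were high in all 12 libraries (6 genes, with a summed level of 5021 to 19390 FPKM), as in skin. The libraries also differed in other tissue. The summed level of 5 skeletal muscle genes was 13310 to 19350 FPKM in Solvent and 3528 to 9360 FPKM in the 9 other libraries, and that of 8 hair follicle matrix and shaft genes was 2287 to 16520 FPKM in the MSC groups and 20.9 to 881 FPKM in Solvent and DNCB. Fold changes below come from counts after TMM scaling, which adjusts for differences in composition, so they can differ from the ratio of mean FPKM. In these bulk samples, fewer cells of a type and less RNA per cell cannot be told apart.

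Tnf and Ltb, encoding TNF and lymphotoxin beta, lie in a 10.9 kb stretch of chromosome 17 that also holds Lta (chr17:35194439-35205351, GRCm38 as in the deposited table). Both rose in DNCB skin, and Lta did not pass the test. Their upstream sequences are shown because NF-kB acts downstream of TNF receptors and is a known regulator of these genes. The RefSeq sequence (GRCm38.p6) was searched on both strands over the 250 bases before each gene start for the NF-kB (kappaB) consensus. Of the 34 members with a promoter in that table, 3 held a match (8.82%), against 4.46% of all 27018 genes. Among the 6 members that were higher in DNCB skin, 5 had a promoter and 1, Ltb, held a match, GGAAAGTCCC, which is in capitals below. The Tnf window held none, which says only that these letters are not in this window. The Tnf sequence is chr17:35202008-35202257 on the minus strand. The Ltb sequence is chr17:35194257-35194438 on the plus strand, ended where the gene begins in the deposited table.
Tnf: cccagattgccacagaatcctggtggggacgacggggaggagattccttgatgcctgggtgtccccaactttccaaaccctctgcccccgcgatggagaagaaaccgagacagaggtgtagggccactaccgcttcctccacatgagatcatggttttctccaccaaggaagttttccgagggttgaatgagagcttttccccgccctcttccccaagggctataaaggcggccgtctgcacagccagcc
Ltb: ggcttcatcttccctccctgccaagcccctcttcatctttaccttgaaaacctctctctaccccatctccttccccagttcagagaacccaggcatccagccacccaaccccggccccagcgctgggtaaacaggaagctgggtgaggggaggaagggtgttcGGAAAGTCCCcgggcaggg

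A change was called, here and below, where it exceeded 2-fold and the p adjusted by Benjamini-Hochberg over all 21890 tested genes was under 0.05. Compared with Solvent skin, 6 of the 39 tested members (15.4%) rose in DNCB skin, where 6.59% of all genes did, and 5 (12.8%) fell, where 7.57% did. Tnf, Ltb, Tnfrsf1b, Tnfrsf12a, Tnfrsf23 and Tnfrsf26 rose, and Cd27, Tnfrsf4, Tnfrsf19, Tnfsf15 and Tnfsf13os fell. The median log2 fold change was 0.25 over the tested members and 0.02 over all genes. With scaling by library size alone, which moves the median of all genes to 0.20, 9 members were higher and 3 lower. Over all genes it gave 2020 higher and 1301 lower, in place of 1442 and 1656.

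Compared with DNCB skin, scMSC skin had 9 members that fell (23.1%, against 3.84% of all genes) and 4 that rose (10.3%, against 4.66%). In scivMSC skin 6 members fell (15.4%, against 2.33%) and 4 rose (10.3%, against 3.13%). The median log2 fold change of the tested members was -0.55 in scMSC and -0.41 in scivMSC, and that of all genes was 0.02 in both. These comparisons use the same 3 DNCB libraries as the comparison with Solvent, so a high or low DNCB value enters all 3, and values are given side by side below without a test of their likeness. The count for scivMSC depended on single libraries, since it was 5, 4 and 6 without DNCB 1, 2 and 3 and 4 without scivMSC 1. Over all genes the scivMSC calls fell too, from 686 higher and 509 lower. They were 325 and 217, 280 and 216, and 384 and 270 without DNCB 1, 2 and 3. Without scivMSC 1 they were 290 and 186. The scMSC count was 8 without DNCB 2, where 686 of all genes were higher and 545 lower, in place of 1021 and 840.

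**Figure D1:**
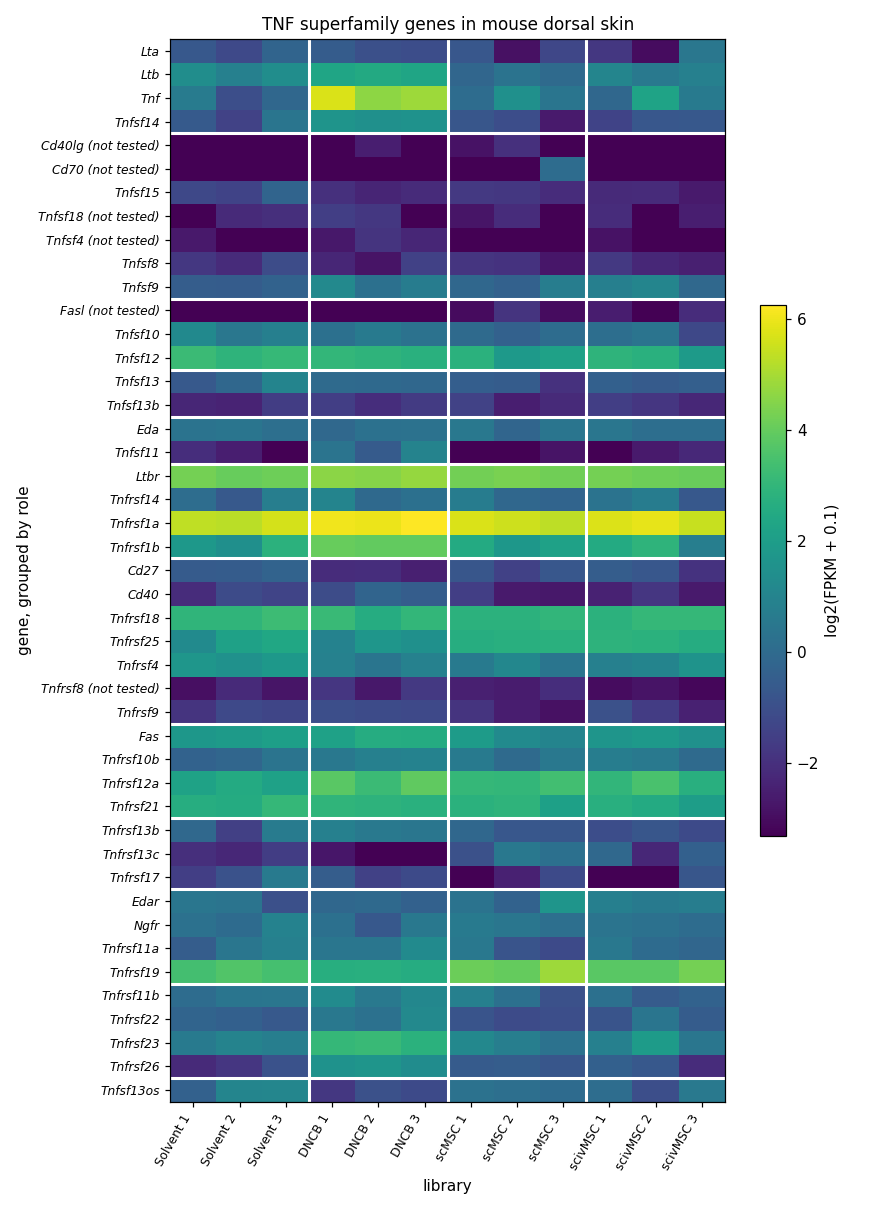
Level of all 45 TNF superfamily genes (rows, grouped by role, with white lines between roles) in the 12 libraries (columns), colored by log2(FPKM + 0.1). The brightest rows are Tnfrsf1a, at 38.7 to 76.4 FPKM, and Tnf in the DNCB libraries alone, at 24.8 to 52.5 FPKM, while the 6 untested genes are dark in nearly every library.

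Among the ligands, the order of the levels changed with DNCB. In Solvent skin the highest ligand was Tnfsf12, encoding TWEAK, at 8.34 ± 0.889 FPKM (SD, n = 3), and it was also first in scMSC (4.93 ± 1.73 FPKM) and scivMSC (5.94 ± 2.06 FPKM). In DNCB skin Tnf came first at 35.5 ± 14.9 FPKM, and its lowest library lay above the highest Tnfsf12 value of 8.05 FPKM. Tnf made up 53.4% to 69.1% of the summed FPKM of the 18 ligands in the DNCB libraries and 2.65% to 24.8% in the 9 others. Among the receptors, Tnfrsf1a, the broadly expressed TNF receptor, was the highest receptor in each group, followed by Ltbr in Solvent, DNCB and scivMSC, and in scMSC Tnfrsf19 and Ltbr overlapped in second place.

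Tnf was listed at 1.47, 0.391 and 0.817 FPKM in the Solvent libraries and at 52.5, 24.8 and 29.1 FPKM in the DNCB libraries. It was at 0.949, 2.73 and 1.21 FPKM in scMSC and at 0.816, 4.55 and 1.40 FPKM in scivMSC. All DNCB libraries were above the 9 others, and the 3 other groups overlapped. The log2 fold change was 5.12 ± 0.78 (SE) in DNCB against Solvent (adjusted p = 0.00146), -4.38 ± 0.75 in scMSC against DNCB (adjusted p = 0.00477) and -3.98 ± 0.74 in scivMSC against DNCB (adjusted p = 0.0115). All 3 calls held when any 1 of the 12 libraries was left out. Against Solvent, Tnf was not called in either MSC group, at 0.74 ± 0.68 in scMSC and 1.14 ± 0.68 in scivMSC.

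Ltb, whose product forms the membrane-bound lymphotoxin heterotrimer with lymphotoxin alpha, was at 2.48, 1.71 and 2.499 FPKM in Solvent and at 4.86, 5.48 and 4.91 FPKM in DNCB. The scMSC libraries were at 0.799, 1.14 and 0.891 FPKM and the scivMSC libraries at 1.96, 1.35 and 1.71 FPKM. DNCB was highest and scMSC lowest, and neither overlapped any other group. The rise in DNCB skin was just over 2-fold, with a log2 fold change of 1.01 ± 0.26 (adjusted p = 0.0163). It was no longer called without Solvent 2, DNCB 2, scMSC 2 or scivMSC 3, where the adjusted p was 0.0161 to 0.0686 and the log2 fold change as low as 0.82, and it was just within 2-fold in 6 of 11 other settings, DESeq2 among them (0.99). The fall from DNCB was -2.39 ± 0.27 in scMSC (adjusted p = 0.00162) and -1.59 ± 0.26 in scivMSC (adjusted p = 0.00751), both called without any 1 library. In scMSC skin Ltb also fell below Solvent, by 1.38 ± 0.26 on the log2 scale (adjusted p = 0.00554). Its partner Lta was low and scattered, with 0.331 to 0.742 FPKM in Solvent, 0.379 to 0.584 FPKM in DNCB, 0.0331 to 0.513 FPKM in scMSC and 0.0260 to 1.29 FPKM in scivMSC, and passed in no comparison.

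Tnfsf14, encoding LIGHT, which binds the lymphotoxin beta receptor and HVEM, was at 0.563, 0.275 and 1.21 FPKM in Solvent and 3.01, 2.67 and 2.87 FPKM in DNCB. It was at 0.495, 0.376 and 0.0629 FPKM in scMSC and at 0.282, 0.500 and 0.522 FPKM in scivMSC, so all DNCB libraries lay above all others. It fell in scMSC (-3.15 ± 0.69, adjusted p = 0.0138) and in scivMSC (-2.69 ± 0.67, adjusted p = 0.0350). The scivMSC call ended without any 1 of the 6 DNCB and scivMSC libraries, with adjusted p of 0.0681 to 0.127. The difference from Solvent, 1.90 ± 0.65 on the log2 scale, missed the threshold (adjusted p = 0.0554), but passed with DESeq2 (adjusted p = 0.0127), with limma on log2(FPKM + 0.1) (adjusted p = 0.0127) and without Solvent 3 (0.0363) or scMSC 3 (0.0169).

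Tnfsf11, encoding RANKL, the osteoclast differentiation factor that keratinocytes and activated T cells can also make, was at 1.20, 0.581 and 1.85 FPKM in the DNCB libraries. Elsewhere it was near the floor, at 0.141, 0.0748 and 0 FPKM in Solvent, 0, 0 and 0.0424 FPKM in scMSC and 0, 0.0621 and 0.116 FPKM in scivMSC. About 4 estimated counts were taken to stand for 1 sequenced fragment, an approximate factor. This puts 161 fragments in the 3 DNCB libraries against 2 in scMSC, 8 in scivMSC and 9 in Solvent. The depth-scaled ratio of DNCB was 82.1 to scMSC (95% counting interval 22.3 to 683), 19.9 to scivMSC (9.85 to 46.9) and 16.2 to Solvent (8.34 to 36.1), and these intervals cover counting error only. The test called the difference from scMSC (adjusted p = 0.0384) but not that from scivMSC (adjusted p = 0.122) or Solvent (adjusted p = 0.0889). Tnfsf11 reached the 0.1 FPKM limit for testing only through the DNCB libraries. Its means elsewhere were 0.0718 FPKM in Solvent, 0.0141 FPKM in scMSC and 0.0595 FPKM in scivMSC. It could therefore enter the test only as a gene high in DNCB, and its direction there carries no separate weight. The scMSC call ended without Solvent 2, any 1 DNCB library, scMSC 1, scMSC 2 or scivMSC 2, with adjusted p of 0.0504 to 0.112. Both missed differences passed with DESeq2 (adjusted p = 0.0418 for scivMSC and 0.0482 for Solvent), with counts divided by 4 (0.0253 and 0.0164) and with limma on log2(FPKM + 0.1) (0.00538 and 0.00189).

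Of the co-stimulatory and T cell ligands, Tnfsf15, encoding TL1A, passed. It was at 0.280 to 0.745 FPKM in Solvent, 0.0985 to 0.152 FPKM in DNCB, 0.129 to 0.197 FPKM in scMSC and 0.0619 to 0.127 FPKM in scivMSC, so that Solvent lay above the 9 libraries of DNCB-treated skin. It fell in DNCB (-1.98 ± 0.44, adjusted p = 0.00846), scMSC (-1.50 ± 0.44, adjusted p = 0.0363) and scivMSC (-2.26 ± 0.45, adjusted p = 0.0104), each against Solvent. The scMSC call ended without Solvent 3, DNCB 3 or any 1 scMSC library, with adjusted p of 0.0525 to 0.133. Tnfsf9, the ligand of 4-1BB, was at 0.593 to 0.707 FPKM in Solvent and 1.06 to 2.20 FPKM in DNCB without passing (1.13 ± 0.43, adjusted p = 0.0769). The death-inducing ligands Tnfsf10 (TRAIL) and Tnfsf12, the B cell survival ligands Tnfsf13 and Tnfsf13b, the hair follicle ligand Eda, and Tnfsf8 passed in none of the 3 comparisons above. Reads of Tnfsf12 and Tnfsf13 can also be assigned to the read-through gene Tnfsfm13, which shares 45.8% and 55.7% of their 75-base words, so their separate values are uncertain.

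Of the 4 receptors of TNF and lymphotoxin, Tnfrsf1b, which encodes TNFR2 of leukocytes and endothelium, passed the test. It was at 3.34, 2.62 and 7.02 FPKM in Solvent, 16.1, 15.2 and 15.4 FPKM in DNCB, 5.64, 3.24 and 4.34 FPKM in scMSC and 5.63, 7.39 and 1.61 FPKM in scivMSC. The DNCB libraries were close to each other and above all others. It rose in DNCB skin (1.69 ± 0.47, adjusted p = 0.0223) and fell from DNCB in scMSC (-1.81 ± 0.47, adjusted p = 0.0287) and scivMSC (-1.69 ± 0.47, adjusted p = 0.0496). The rise was no longer called without Solvent 1, Solvent 2 or any 1 DNCB library (adjusted p = 0.0508 to 0.0928), and the fall in scMSC without any 1 DNCB library, scMSC 2 or scMSC 3 (0.0663 to 0.107). The fall in scivMSC ended with 10 of the 12 libraries, all but Solvent 3 and scivMSC 2, left out in turn (0.0554 to 0.119), with library size alone (0.0723), with no filter (0.0604) and with only the 6 libraries compared (0.0882).

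Tnfrsf1a, encoding TNFR1, changed less. It was at 40.7, 38.7 and 49.7 FPKM in Solvent, 65.7, 62.7 and 76.4 FPKM in DNCB, 52.6, 45.5 and 39.3 FPKM in scMSC and 54.3, 58.9 and 43.2 FPKM in scivMSC. The DNCB libraries lay above all others, but the log2 fold change was 0.48 ± 0.14 against Solvent (adjusted p = 0.0264), under the 2-fold limit. Against DNCB it was -0.55 ± 0.14 in scMSC (adjusted p = 0.0263) and -0.39 ± 0.14 in scivMSC (adjusted p = 0.122). Ltbr, the lymphotoxin beta receptor, likewise stood at 22.8 to 26.8 FPKM in DNCB and at 16.3 to 18.9 FPKM in Solvent and scivMSC, with log2 fold changes of 0.30, -0.35 and -0.47, all within 2-fold. Tnfrsf14 (HVEM) overlapped between all groups, at 0.530 to 1.88 FPKM.

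**Figure D2:**
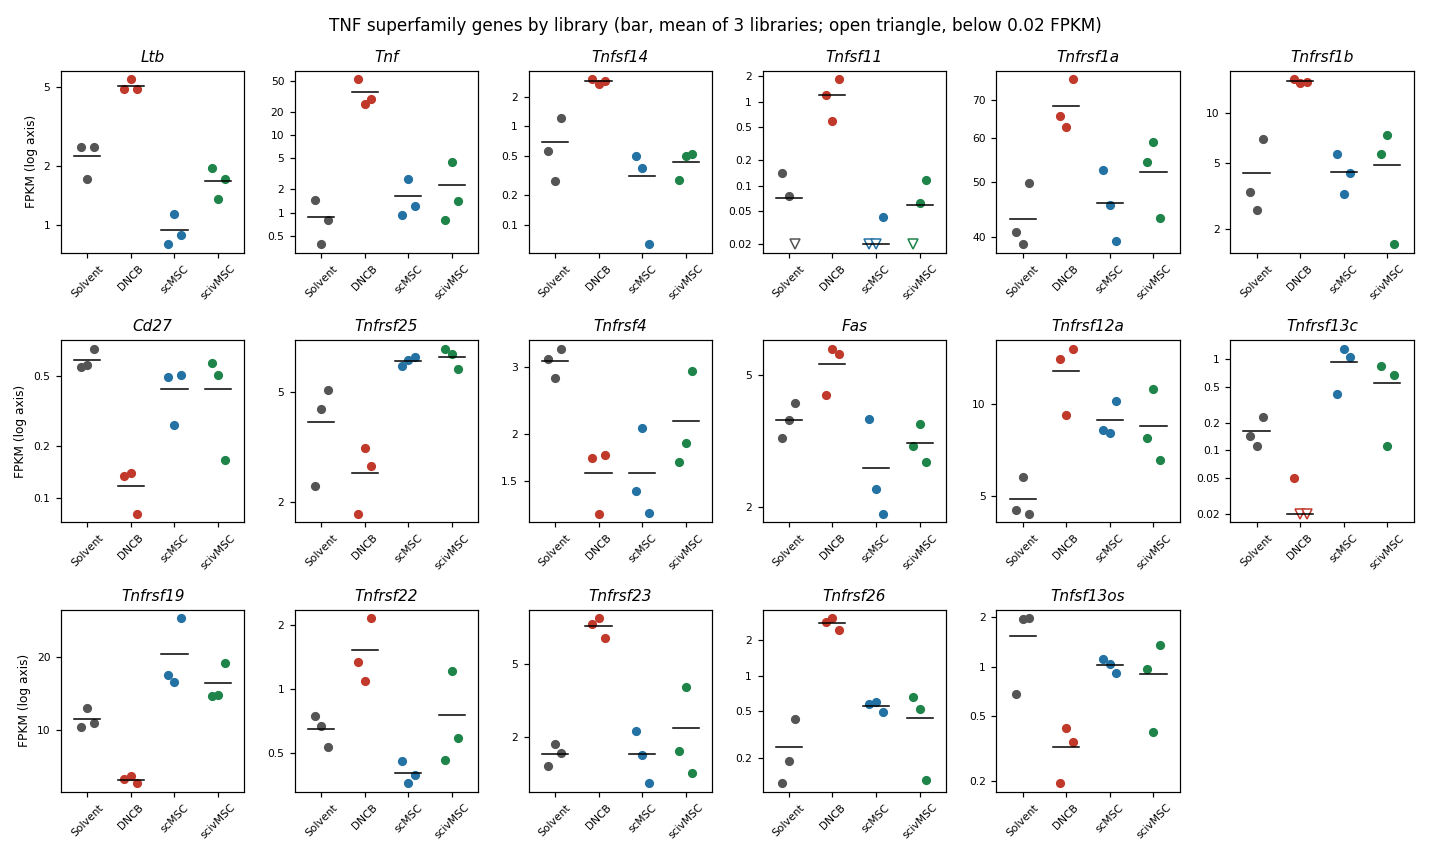
FPKM (log axis) of 17 TNF superfamily genes in each library, by group, with 1 point per library and a bar at the mean of 3 libraries, and open triangles for libraries below 0.02 FPKM. In the panels of Tnf, Tnfsf14, Tnfrsf1b, Tnfrsf23 and Tnfrsf26 the DNCB points stand above all others, and in those of Cd27, Tnfrsf13c, Tnfrsf19 and Tnfsf13os most or all of them lie below the rest.

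Tnfrsf22, Tnfrsf23 and Tnfrsf26 form a cluster of 78.2 kb on chromosome 7 (chr7:143607659-143685872). The first 2 encode mouse receptors that bind TRAIL without a death domain and are known as decoy receptors, and the third is a little-studied relative. Tnfrsf23 was at 1.39, 1.82 and 1.63 FPKM in Solvent, 8.21, 8.85 and 6.93 FPKM in DNCB, 2.15, 1.59 and 1.12 FPKM in scMSC and 1.69, 3.73 and 1.27 FPKM in scivMSC. Tnfrsf26 was at 0.122, 0.188 and 0.431 FPKM in Solvent, 2.83, 3.08 and 2.44 FPKM in DNCB, 0.575, 0.600 and 0.491 FPKM in scMSC and 0.663, 0.522 and 0.130 FPKM in scivMSC. For both genes DNCB did not overlap any other group. Tnfrsf23 rose in DNCB by 2.12 ± 0.36 (adjusted p = 0.00237) and Tnfrsf26 by 3.31 ± 0.57 (adjusted p = 0.00232) on the log2 scale, and both calls held without any 1 library.

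Against DNCB, Tnfrsf23 fell in scMSC (-2.28 ± 0.37, adjusted p = 0.00356) and scivMSC (-1.85 ± 0.36, adjusted p = 0.0139), the second not without DNCB 2 or scivMSC 1 (0.0523 to 0.0629). Tnfrsf26 fell in scMSC (-2.29 ± 0.54, adjusted p = 0.0187), not without DNCB 1, DNCB 2, scMSC 2 or scMSC 3 (0.0522 to 0.0663), and in scivMSC (-2.67 ± 0.55, adjusted p = 0.0171), not without DNCB 1 or DNCB 2 (0.0519 to 0.0566). Tnfrsf22 was at 0.748, 0.674 and 0.533 FPKM in Solvent, 1.34, 1.09 and 2.17 FPKM in DNCB, 0.458, 0.360 and 0.393 FPKM in scMSC and 0.462, 1.23 and 0.592 FPKM in scivMSC. It fell in scMSC (-1.89 ± 0.39, adjusted p = 0.01005), whereas scivMSC 2 overlapped DNCB and the difference did not pass (-1.01 ± 0.38, adjusted p = 0.135), though it did without scivMSC 2 (0.0323). Its difference between DNCB and Solvent missed the threshold (1.04 ± 0.38, adjusted p = 0.0681) and passed without scivMSC 2 (0.0346), with DESeq2 (0.0320), with library size alone (0.0355) and with limma on log2(FPKM + 0.1) (0.0381). Transcripts of Tnfrsf22 and Tnfrsf23 share an identical run of 306 bases, and 20.8% and 13.1% of their 75-base words occur in other genes, so reads can be split between them and their single values are uncertain. Tnfrsf26 shares no run over 18 bases with either. An antisense gene, E230032D23Rik, overlaps all 3, and whether counting used strand is not stated. Tnfrsf11b, the secreted decoy osteoprotegerin that binds RANKL, was at 1.37 to 2.36 FPKM in DNCB and 0.954 to 1.25 FPKM in Solvent without passing (0.58 ± 0.44, adjusted p = 0.386).

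Among the death and TWEAK receptors, Tnfrsf12a (Fn14, the TWEAK receptor) was at 4.50, 5.76 and 4.36 FPKM in Solvent and 14.0, 9.17 and 15.2 FPKM in DNCB. It was at 8.23, 8.03 and 10.2 FPKM in scMSC and 7.73, 11.2 and 6.55 FPKM in scivMSC, so all libraries of DNCB-treated skin lay above Solvent and the MSC groups overlapped DNCB. It rose in DNCB (1.19 ± 0.24, adjusted p = 0.00480), without any 1 library as well, and did not pass against DNCB in scMSC (-0.51 ± 0.23, adjusted p = 0.206) or scivMSC (-0.59 ± 0.23, adjusted p = 0.162). Its ligand gene Tnfsf12 was at 7.43 to 9.21 FPKM in Solvent and 6.73 to 8.05 FPKM in DNCB.

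Fas, the death receptor for Fas ligand, was at 3.24, 3.67 and 4.13 FPKM in Solvent, 4.36, 6.02 and 5.82 FPKM in DNCB, 3.68, 2.27 and 1.91 FPKM in scMSC and 3.07, 3.56 and 2.75 FPKM in scivMSC. It fell in scMSC by just over 2-fold (-1.02 ± 0.24, adjusted p = 0.0195), a call that ended without DNCB 2, DNCB 3, scMSC 2 or scMSC 3 (0.0603 to 0.0747) or with only the 6 libraries compared (0.0655). Fasl was at 0 in all Solvent and DNCB libraries, which at this depth allows up to 3 fragments in each, and at most 0.169 FPKM elsewhere. The TRAIL death receptor Tnfrsf10b (0.701 to 1.82 FPKM) and Tnfrsf21 (3.93 to 8.32 FPKM) passed in none of the 3 comparisons.

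Of the co-stimulatory receptors, Cd27 and Tnfrsf4 fell in DNCB skin, and Cd27 and Tnfrsf25 were higher than DNCB in both MSC groups. Cd27 (chr6:125232622-125237010), the receptor of CD70 on T and B cells, was at 0.567, 0.584 and 0.723 FPKM in Solvent and 0.134, 0.139 and 0.0814 FPKM in DNCB. It was at 0.496, 0.263 and 0.511 FPKM in scMSC and 0.600, 0.508 and 0.166 FPKM in scivMSC, and the DNCB libraries were below all 9 others. It fell in DNCB (-2.54 ± 0.50, adjusted p = 0.00443), also without any 1 library, and was higher than DNCB in scMSC (1.82 ± 0.49, adjusted p = 0.0330) and scivMSC (1.81 ± 0.49, adjusted p = 0.0455). The scMSC call ended without any 1 DNCB library, scMSC 1 or scMSC 3 (0.0696 to 0.118), and the scivMSC call without each library but scivMSC 3 (0.0502 to 0.152). Both also ended in 6 and 7 of 10 other settings, among them limma on log2(FPKM + 0.1) (0.0613 and 0.0925), no filter on low values (0.0641 and 0.0818) and a fit of only the 6 libraries compared (0.0603 and 0.124). Cd27 overlaps Vamp1 on the other strand.

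Tnfrsf4, encoding OX40 of activated and regulatory T cells, was at 3.16, 2.80 and 3.36 FPKM in Solvent, 1.73, 1.23 and 1.76 FPKM in DNCB, 1.41, 2.07 and 1.23 FPKM in scMSC and 1.68, 1.89 and 2.92 FPKM in scivMSC. Solvent did not overlap DNCB or scMSC. It fell in DNCB (-1.16 ± 0.33, adjusted p = 0.0236) and in scMSC against Solvent (-1.12 ± 0.32, adjusted p = 0.0358). The DNCB call ended without Solvent 1 or any 1 DNCB library (0.0531 to 0.0860) and was within 2-fold with library size alone (-0.98) and limma on log2(FPKM + 0.1) (-0.95), and the scMSC call without any 1 Solvent library, DNCB 1, DNCB 3, scMSC 1 or scMSC 3 (0.0504 to 0.113). Between scMSC and DNCB its difference was 0.04 ± 0.32 and took either sign with the processing. Tnfrsf18 (GITR), its neighbour on chromosome 4, overlapped between all groups at 5.93 to 9.29 FPKM.

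Tnfrsf25, encoding DR3, the receptor of TL1A, was at 2.29, 4.34 and 5.06 FPKM in Solvent, 1.81, 3.15 and 2.71 FPKM in DNCB, 6.18, 6.51 and 6.67 FPKM in scMSC and 7.15, 6.84 and 6.05 FPKM in scivMSC. The MSC libraries lay above all 6 others. It was higher than DNCB in scMSC (1.36 ± 0.28, adjusted p = 0.00978) and scivMSC (1.39 ± 0.28, adjusted p = 0.0153), the second not without DNCB 1 or scivMSC 1 (0.0539 to 0.0585). DNCB against Solvent was -0.78 ± 0.27 (adjusted p = 0.0593), and called without Solvent 1 (0.0111). Cd40, of antigen-presenting cells, was at 0.367 to 0.747 FPKM in DNCB, above the 0.135 to 0.353 FPKM of Solvent, the 0.0539 to 0.245 FPKM of scMSC and the 0.0599 to 0.187 FPKM of scivMSC. It narrowly missed the threshold against DNCB in scMSC (-2.20 ± 0.66, adjusted p = 0.0515) and scivMSC (-2.36 ± 0.66, adjusted p = 0.0530). Tnfrsf9 (4-1BB) passed in no comparison, at 0.0347 to 0.423 FPKM.

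Of the B cell survival receptors, Tnfrsf13c, encoding the BAFF receptor, was at 0.0493, 0 and 0 FPKM in DNCB, 2 fragments in all. It was at 0.143, 0.112 and 0.236 FPKM in Solvent, 0.422, 1.32 and 1.06 FPKM in scMSC and 0.850, 0.112 and 0.676 FPKM in scivMSC. The depth-scaled ratio to DNCB was 57.4 in scMSC (95% counting interval 15.5 to 479, 117 fragments), 33.4 in scivMSC (8.89 to 281, 66 fragments) and 9.92 in Solvent (2.37 to 88.1, 18 fragments). Tnfrsf13c was called higher than DNCB in scMSC (adjusted p = 0.0140) and scivMSC (adjusted p = 0.0341), the second not without DNCB 2, DNCB 3, scivMSC 1 or scivMSC 3 (0.0807 to 0.102). DNCB against Solvent missed the threshold (adjusted p = 0.0606), and passed without DNCB 1 (0.0139) or scivMSC 2 (0.0460), with DESeq2 (0.00679) and with limma on log2(FPKM + 0.01) (0.0242). The 6 B and plasma cell markers summed to 1.48 to 2.26 FPKM in Solvent, 0.699 to 3.02 FPKM in DNCB, 0.416 to 1.44 FPKM in scMSC and 0.609 to 1.73 FPKM in scivMSC. Of the 4 that were tested, 3 were lower in DNCB than in Solvent without passing (median log2 fold change -1.01), and 2 of 4 were lower in each MSC group than in DNCB. The defining marker Ms4a1 was at or near 0 in all groups. Their part in the result was not tested. Tnfrsf13b (TACI) and Tnfrsf17 (BCMA) passed in none of the comparisons.

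Tnfrsf19 (TROY, chr14:60963875-61046490), a receptor of skin appendages and stem cells, was the member of the ectoderm and bone receptors that passed. It was at 10.4, 12.4 and 10.7 FPKM in Solvent, 6.32, 6.47 and 6.05 FPKM in DNCB, 17.0, 15.8 and 29.1 FPKM in scMSC and 13.9, 14.0 and 19.0 FPKM in scivMSC. DNCB lay below and both MSC groups above the range of Solvent. It fell in DNCB by just over 2-fold (-1.02 ± 0.23, adjusted p = 0.00858), within 2-fold without Solvent 2 or DNCB 3, where the log2 change was as small as 0.95, and also with library size alone (-0.83) and limma on log2(FPKM + 0.1) (-0.82). It rose against DNCB in scMSC (1.73 ± 0.23, adjusted p = 0.00220) and scivMSC (1.33 ± 0.23, adjusted p = 0.00909), with any 1 library left out. Hair follicle matrix and shaft genes moved the same way between DNCB and the MSC groups. Of 8 markers, 5 rose in scMSC and 3 in scivMSC against DNCB, and their summed level was 292 to 881 FPKM in DNCB, 5891 to 16520 FPKM in scMSC and 2287 to 5508 FPKM in scivMSC. Between Solvent, at 20.9 to 326 FPKM, and DNCB edgeR called none of the 8, and 5 of the 8 were higher in DNCB (median log2 fold change 1.13), the opposite direction to Tnfrsf19. Their part in the result was not tested. Edar, the ectodysplasin receptor of hair follicle placodes, was at 0.676 to 0.857 FPKM in DNCB, 0.705 to 3.09 FPKM in scMSC and 1.43 to 1.66 FPKM in scivMSC and did not pass (1.09 ± 0.53 and 0.99 ± 0.53, adjusted p = 0.229 and 0.303). Tnfrsf11a (RANK) and Ngfr did not pass either.

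Tnfsf13os, which lies antisense to Tnfsf13 and Tnfsf12 on chromosome 11, was at 0.680, 1.95 and 1.98 FPKM in Solvent, 0.194, 0.422 and 0.348 FPKM in DNCB, 1.12, 1.04 and 0.911 FPKM in scMSC and 0.967, 0.398 and 1.35 FPKM in scivMSC. It fell in DNCB (-2.37 ± 0.57, adjusted p = 0.0118), also without any 1 library. Without knowing whether strand was used, reads of the antisense transcript and of the overlapping genes cannot be told apart.

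**Figure D3:**
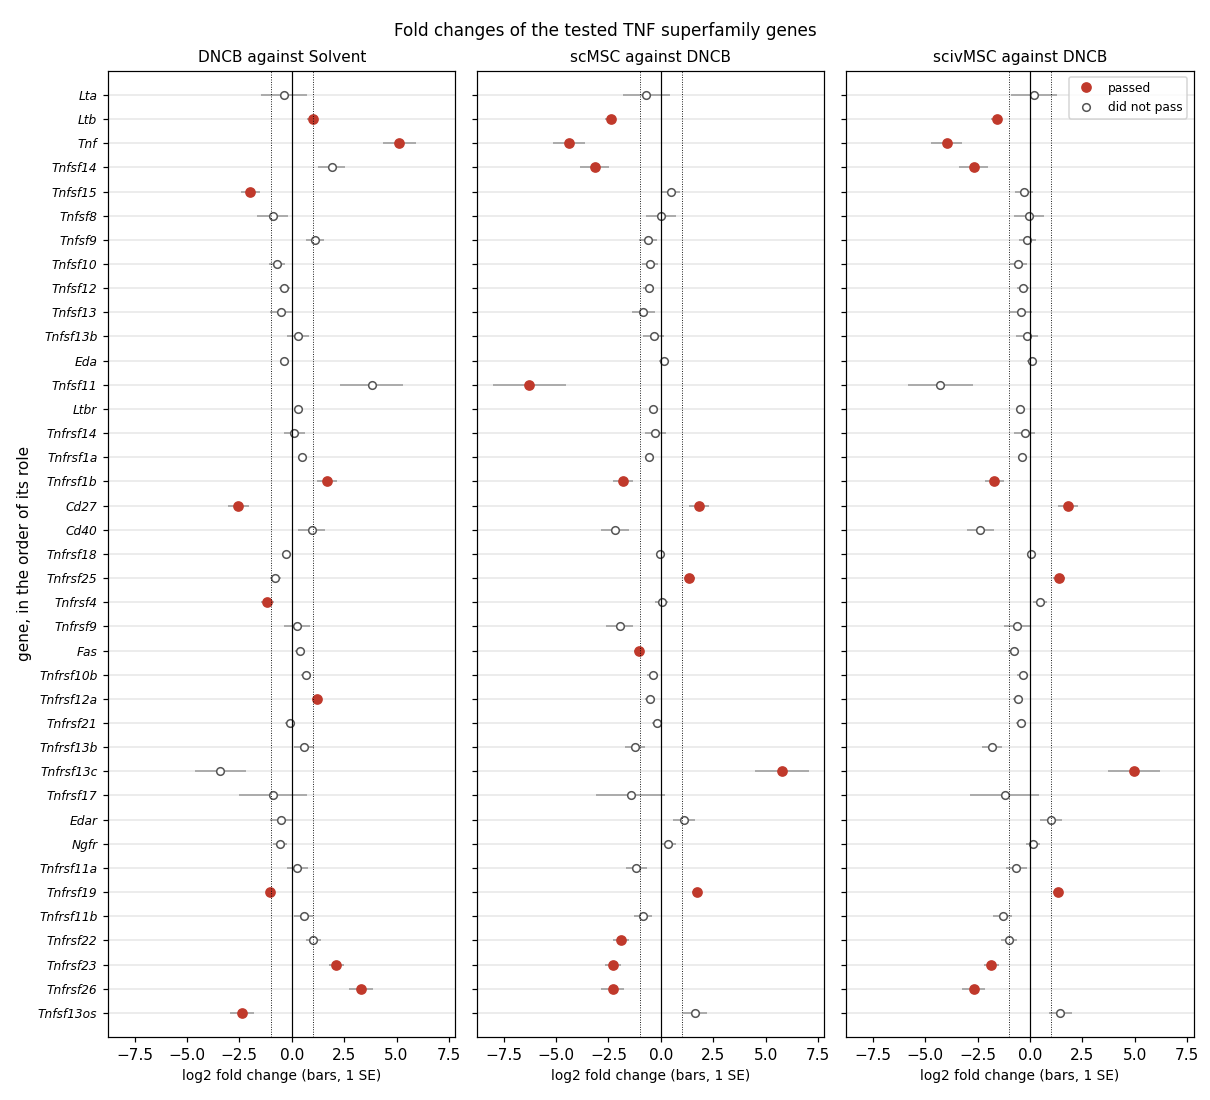
Log2 fold change of the 39 tested genes (rows, in the order of their roles) in DNCB against Solvent, scMSC against DNCB and scivMSC against DNCB, with bars of 1 SE, dotted lines at a 2-fold change and filled red points for genes that passed the test. Tnf is at 5.12, -4.38 and -3.98, and the fitted values of Tnfsf11 and Tnfrsf13c rest on groups with few or no fragments and are no measure of size.

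Markers of other cell types moved with several of these genes. The neutrophil list held Csf3r, Cxcr2, S100a8, S100a9, Mmp8, Retnlg, Mpo and Elane. Of the 7 tested neutrophil markers, 6 rose and 1 fell in DNCB against Solvent. Against DNCB, 6 of these markers fell and 1 was higher without passing, in scMSC and in scivMSC alike. The summed level of the list was 121 to 208 FPKM in Solvent, 2463 to 3428 FPKM in DNCB, 15.9 to 65.5 FPKM in scMSC and 34.7 to 177 FPKM in scivMSC. Retnlg, which is largely restricted to neutrophils, was at 49.2 to 103 FPKM in DNCB and at most at 6.49 FPKM elsewhere. Most of the DNCB sum therefore came from other genes of the list. The macrophage and monocyte list summed to 145 to 530 FPKM, 671 to 793 FPKM, 122 to 280 FPKM and 39.99 to 314 FPKM in the same order, and 1 of its 8 genes rose in DNCB. These lists were highest in the DNCB group, as were Tnf, Tnfrsf1b, Tnfsf14, Tnfrsf23 and Tnfrsf26. The order within that group differed by gene. DNCB 2 had the highest neutrophil and macrophage sums (3428 and 793 FPKM). It was the highest DNCB library in Tnfrsf23 and Tnfrsf26 but the lowest in Tnf, Tnfrsf1b and Tnfsf14. The library scivMSC 3 was the lowest in the macrophage, mast cell, fibroblast and endothelial lists and also in Tnfrsf1b. Within its group it was lowest in Tnfrsf23 (1.27 FPKM) and Tnfrsf26 (0.130 FPKM) as well. It was highest of that group in Tnfsf14 (0.522 FPKM), and in Tnf it lay between the others. Fibroblast, endothelial, mast cell and keratinocyte sums were also higher in DNCB than in Solvent. The 6 mast cell markers summed to 21.9 to 37.0 FPKM in Solvent and 89.0 to 105.5 FPKM in DNCB. In scMSC they summed to 51.1 to 114 FPKM and in scivMSC to 17.7 to 108 FPKM, and 1 of the 6 rose in DNCB. The 6 keratinocyte markers summed to 5537 to 12040 FPKM in Solvent and 13270 to 19390 FPKM in DNCB, where 2 rose and 1 fell. In scMSC they summed to 5021 to 9349 FPKM and in scivMSC to 8628 to 15530 FPKM. The 5 fibroblast markers summed to 174 to 253 FPKM in Solvent, 1186 to 1484 FPKM in DNCB, 171 to 519 FPKM in scMSC and 88.8 to 643 FPKM in scivMSC, and 3 of them rose in DNCB and 2 fell in scMSC. The 4 endothelial markers summed to 20.3 to 29.0 FPKM in Solvent, 41.7 to 53.3 FPKM in DNCB, 17.4 to 28.1 FPKM in scMSC and 12.8 to 33.3 FPKM in scivMSC, and 3 of them fell in scMSC and 1 in scivMSC. The 9 T cell markers summed to 3.59 to 5.93 FPKM in Solvent and 4.66 to 5.17 FPKM in DNCB, while Cd27 and Tnfrsf4 did not overlap between these groups. In scMSC the T cell markers summed to 2.58 to 4.36 FPKM and in scivMSC to 3.37 to 4.55 FPKM. Of the 8 tested, 1 rose in DNCB against Solvent, and 1 fell in scMSC against DNCB and 1 against Solvent. The 3 regulatory T cell markers summed to 2.65 to 2.77 FPKM in Solvent, 0.624 to 0.870 FPKM in DNCB, 0.788 to 1.56 FPKM in scMSC and 1.13 to 1.73 FPKM in scivMSC, mostly from Ikzf2, while Foxp3 had group means of 0.0289 to 0.0755 FPKM. The part of these cells in the results was not tested.

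**Figure D4:**
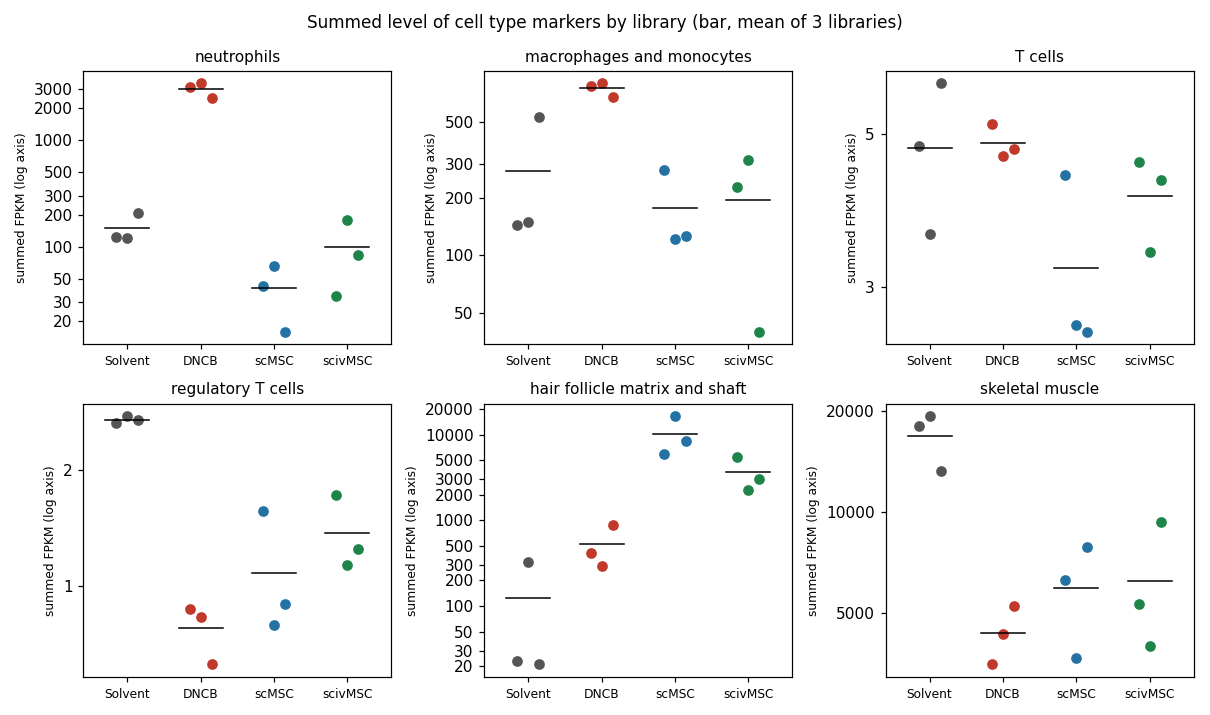
Summed FPKM (log axis) of 6 cell type marker lists in each library, by group, with 1 point per library and a bar at the mean of 3 libraries. The neutrophil list stands at 2463 to 3428 FPKM in DNCB and below 209 FPKM elsewhere, the hair follicle list is highest in the MSC groups, and the skeletal muscle list is highest in Solvent.

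A list of 46 genes of TNF receptor signalling, all of which were tested, was examined beside the family. In DNCB against Solvent 6 rose, where 6.59% of all genes did, and 0 fell, where 7.57% did, by edgeR, with 4 of the lower genes at an unadjusted p under 0.05 and 0 called by DESeq2 or by limma on log2(FPKM + 0.1). The median log2 fold change was 0.26. Among the 6 cell death effectors 2 rose. Ripk3, the necroptosis kinase, went from a mean of 2.05 to 10.2 FPKM (2.12 ± 0.22, adjusted p = 0.000489), and Mlkl, the pore-forming protein that it activates, from 1.23 to 4.33 FPKM (1.63 ± 0.39, adjusted p = 0.0121). Casp8 stayed just under 2-fold (0.97 ± 0.21, adjusted p = 0.00730).

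The inhibitors and NF-kB regulators that rose were Bcl3, an atypical IkB protein, from 5.46 to 19.7 FPKM (1.66 ± 0.34, adjusted p = 0.00520), and Nfkbie, encoding IkB epsilon, from 1.53 to 3.62 FPKM (1.06 ± 0.25, adjusted p = 0.00999). Traf1, an adaptor of TNFR2, rose from 0.398 to 1.10 FPKM (1.28 ± 0.26, adjusted p = 0.00483), and Adam10, a sheddase of several family members, from 10.4 to 25.8 FPKM (1.14 ± 0.13, adjusted p = 0.000608). The call of Nfkbie ended without Solvent 3 or DNCB 1, where the log2 change was as small as 0.98, and that of Mlkl without Solvent 1 or Solvent 2 (0.0526 to 0.0548). None of the 8 NF-kB kinases and subunits was called by edgeR, with Nfkb1 closest at 0.87 ± 0.17 (adjusted p = 0.00401, within 2-fold). Adam17, the TNF sheddase, was at 0.49 ± 0.15 (adjusted p = 0.0294).

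Against DNCB, 5 of the 46 fell and 0 rose in both scMSC and scivMSC, by edgeR. Over all genes 3.84% fell and 4.66% rose in scMSC, and 2.33% fell and 3.13% rose in scivMSC. DESeq2 and limma called 0 higher in either, and 2 were higher at an unadjusted p under 0.05 in each. Ripk3 fell by 1.68 in scMSC and 1.45 in scivMSC on the log2 scale, Mlkl by 2.08 and 1.81, Bcl3 by 1.91 and 1.36, Nfkbie by 1.37 and 1.68, and Relt, an orphan receptor of the family that the symbol rule does not take in, by 1.33 and 1.52. In scivMSC the calls of Bcl3 and Mlkl ended without any 1 DNCB library, scivMSC 1 or scivMSC 3 (adjusted p = 0.0664 to 0.119 and 0.0557 to 0.0881). The Relt calls ended without DNCB 1, DNCB 3 or scMSC 2 (0.0518 to 0.0534), and without DNCB 1, DNCB 3 or scivMSC 1 (0.0506 to 0.0598). Traf1 and Adam10 did not pass, with Traf1 at -0.08 ± 0.25 and -0.44 ± 0.25 and Adam10 at -0.26 ± 0.13 and -0.46 ± 0.13.

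**Figure D5:**
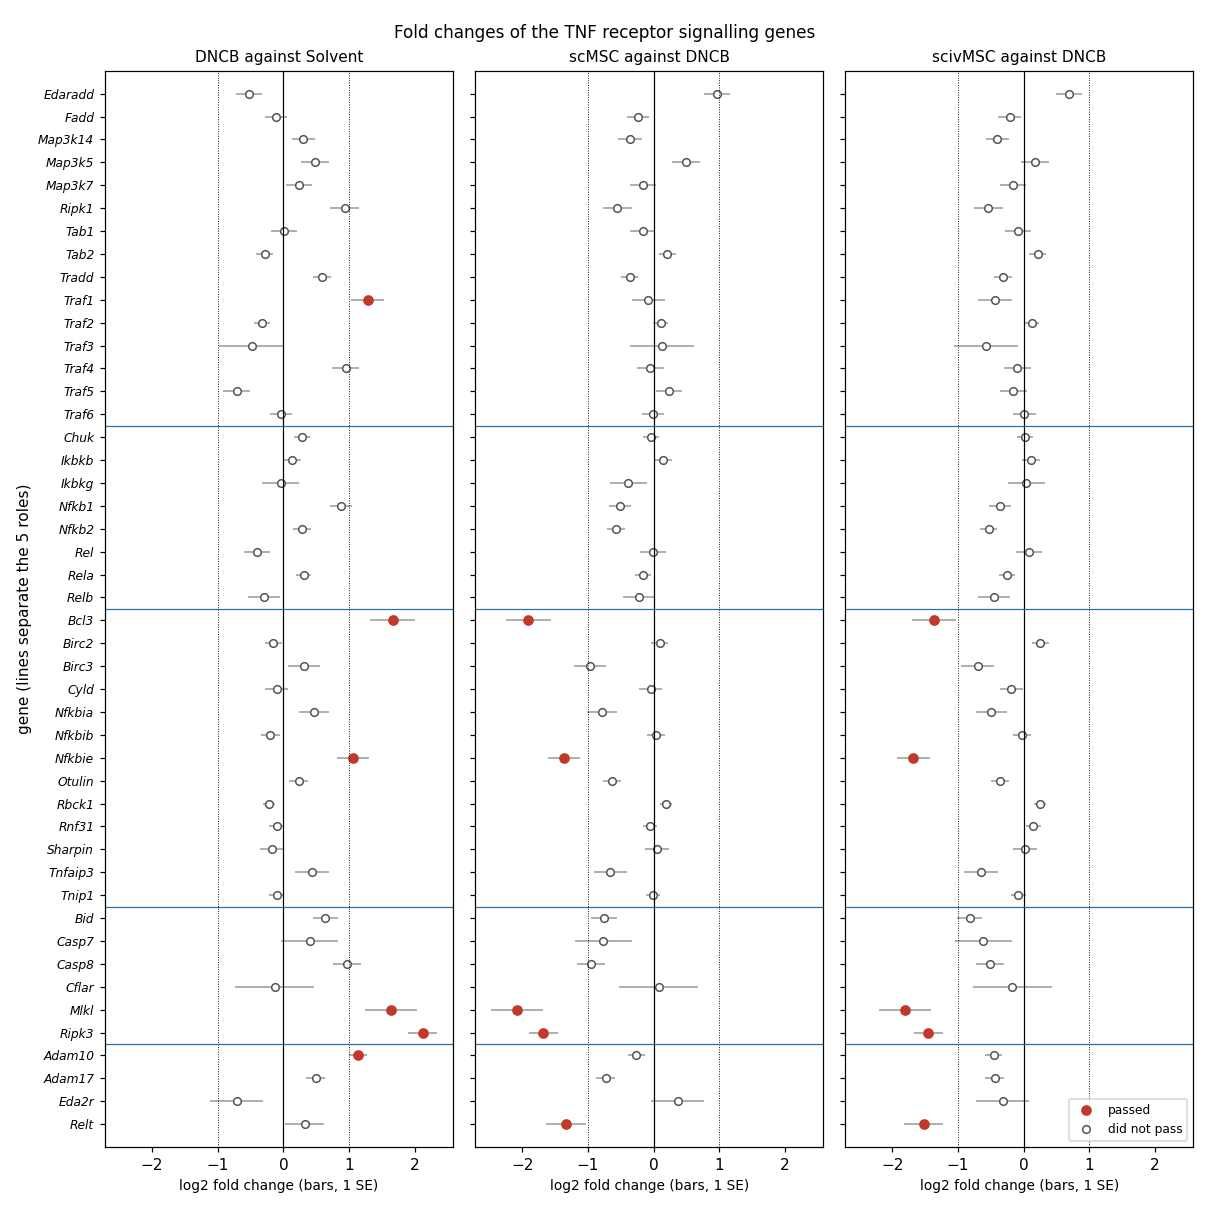
Log2 fold change of 46 TNF receptor signalling genes (rows, with blue lines between the 5 roles) in the same comparisons, with bars of 1 SE, dotted lines at a 2-fold change and filled red points for genes that passed. Ripk3 is highest in DNCB against Solvent at 2.12, and Mlkl is lowest in both MSC comparisons at -2.08 and -1.81.

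The MSC groups were also set against Solvent directly. In scMSC 0 of 39 were higher, where 5.12% of all genes were, and 3 were lower, Ltb, Tnfrsf4 and Tnfsf15, where 4.20% of all genes were. In scivMSC 0 were higher (3.50% of all genes) and 1, Tnfsf15, was lower (3.35%). At an unadjusted p under 0.05, 3 members were higher and 9 lower in scMSC, and 3 were higher and 6 lower in scivMSC, by edgeR. Over all 21890 genes, 7080 in scMSC and 6121 in scivMSC were under that limit, counting both directions. The median log2 fold change of the tested members was -0.34 in both, with 30 of 39 below 0 in scMSC and 26 in scivMSC, against a median over all genes of 0.00 and 0.04. DESeq2 called 0 higher in either group, and limma on log2(FPKM + 0.1) called 1 in scMSC and 0 in scivMSC. The scMSC count of 3 was 1 without Solvent 3, DNCB 3 or scMSC 3 and 5 without scMSC 1. The scivMSC count of 1 was 2 without Solvent 2 or scivMSC 3. Tnfrsf19 and Tnfrsf25 lay above Solvent in every MSC library, at 0.71 ± 0.23 and 0.58 ± 0.27 in scMSC and 0.31 ± 0.23 and 0.61 ± 0.27 in scivMSC, and did not pass. Tnfrsf12a also lay above Solvent in every MSC library without passing. In each MSC group 5 of the 39 members lay wholly above Solvent, where 25.9% of all genes did in scMSC and 24.3% in scivMSC. Wholly below it lay 8 members in scMSC (11.7% of all genes) and 2 in scivMSC (10.3%). In the signalling list, Traf1 was higher in scMSC (1.20 ± 0.26, adjusted p = 0.00923, within 2-fold without Solvent 2 or scMSC 2) and Relt was lower in scMSC (-1.01 ± 0.30, adjusted p = 0.0378) and scivMSC (-1.20 ± 0.30, adjusted p = 0.0242). The Relt calls ended without Solvent 1, Solvent 2, DNCB 1, DNCB 3, scMSC 1 or scMSC 2 (0.0546 to 0.0988) and without Solvent 1, Solvent 2 or scivMSC 1 (0.0603 to 0.0863).

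Between the routes of MSC delivery 0 of 39 members were called in either direction by edgeR, DESeq2 or limma on log2(FPKM + 0.1), where 0.00457% of all genes were higher in scivMSC and 0.00% were lower. At an unadjusted p under 0.05 there were 2 members, Ltb (0.80 ± 0.26 higher in scivMSC, adjusted p = 0.589) and Tnfrsf22 (0.88 ± 0.38, adjusted p = 0.658). Over all 21890 genes 1642 were under that limit. In both members every scivMSC library lay above every scMSC library, as in 5.16% of all genes. In 2 other members every scivMSC library lay below, as in 5.67% of all genes. Tnf differed by 0.40 ± 0.67. A difference that does not pass with 3 libraries a group does not show that the routes act alike.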

How the data were processed

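Bulk RNA sequencing of 12 mouse dorsal skin libraries was analysed from 1 deposited table of 36400 genes. The authors deposited FPKM values and estimated counts, already whole numbers, for each library. The submitters' processing notes name Bowtie 0.12.2, HISAT2 2.0, StringTie 1.3.0 and the build mm8, without their roles, while 40 of the 45 members have the same coordinates in a GRCm38 annotation (GENCODE M21) and the other 5 overlap theirs. Strand use is not given in the sources used here. About 4 estimated counts were taken to stand for 1 fragment. Of the low nonzero counts, 38.9% to 41.2% per library were multiples of 4, so this factor is approximate. The fragment numbers, counting intervals and floor rest on it. A library with up to 12 estimated counts (3 fragments) was taken as at the floor.

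The estimated counts were tested with the edgeR 4.0.16 quasi-likelihood F-test in R 4.3.3, with TMM scaling and 1 model of 4 groups. Genes averaging 0.1 FPKM or more over all libraries entered the test, and Benjamini-Hochberg adjustment covered all 21890. The SE is the absolute log2 fold change divided by the square root of F. Values in every library are given for members called in at least 1 of the 3 main comparisons with a mean of at least 0.5 FPKM in their highest group, and for Tnf, Tnfrsf1a and Tnfrsf1b. Pathway genes are named if called in DNCB against Solvent, and Relt, Casp8, Nfkb1 and Adam17 were named after their values were seen. The members, gene lists and tests were chosen with earlier results of these data known. Alternatives were other scalings, filters and tools (DESeq2 1.42.0, limma 3.58.1), counts divided by 4, the 6 libraries compared, a replicate block and leaving out each library. The code was tested on simulated data. Totals of 63877153 to 75134001 estimated counts limit precision for low genes, and intervals and floors cover counting error only. A gene of the signalling list is not reported here.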

Additional observations from a re-analysis of the deposited data

How the results depend on the processing

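In DNCB against Solvent 11 members were called, and 7 with limma on log2(FPKM + 1). In scMSC against Solvent 3 were called, against 1 with library size alone, 1 with no filter on low values, 5 with DESeq2 and 0 with limma on log2(FPKM + 1). In scivMSC against Solvent 1 was called, against 2 with DESeq2, 0 with limma on log2(FPKM + 1) and 0 with only the 6 libraries compared. Each library of the 2 groups compared was left out in turn. This gave 8 to 12 members called in DNCB against Solvent, 8 to 14 in scMSC against DNCB and 4 to 10 in scivMSC against DNCB. It gave 1 to 5 in scMSC against Solvent, 1 to 2 in scivMSC against Solvent and 0 between the MSC groups. Libraries outside the pair also moved the counts. Without scivMSC 2, DNCB against Solvent had 7 members higher and 6 lower. Without scivMSC 3, scMSC against DNCB had 4 higher and 11 lower. The cause of these differences was not tested.

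For the 47 calls of genes under the naming rule in the 3 main comparisons, 934 of 1072 alternative values kept the call, 110 lost it by adjusted p and 28 by the 2-fold limit alone. By adjusted p alone, and over all named genes, 1396 values stayed on their side of the threshold, 125 lost and 40 gained significance, and 8 changed sign. The sign changes were Tnfrsf4 in scMSC against DNCB (0.04), at -0.014, -0.0060 and -0.015 with limma and pseudocounts of 0.1, 1 and 0.01, -0.10 without DNCB 2 and -0.28 without scMSC 2 (-0.28 to 0.20 over all libraries left out in turn), and Traf1 in the same comparison (-0.08), at 0.031 without DNCB 3, 0.012 without scMSC 1 and 0.013 without scMSC 3 (-0.30 to 0.031 over all). None of these 8 passed.

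Libraries with the same number did not deviate together (correlations of -0.21 to 0.149), so the numbers were not taken to pair the samples. With the replicate number as a block, 6 in place of 10 members were called in scivMSC against DNCB and 1 in place of 3 in scMSC against Solvent. Counts of members in the other comparisons stayed within 1.5 times. Depth limits what can be said of Cd70, Fasl and the 4 other untested members.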

Other observations

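Cd70, the ligand of Cd27, was listed at 0 in 11 libraries and at 0.952 FPKM in scMSC 3, from 65 estimated counts. Tnfrsf4 and Tnfrsf18, neighbours on chromosome 4, had group means of 3.10 and 8.19 FPKM in Solvent and of 1.57 and 7.57 FPKM in DNCB. Edaradd, the adaptor of the ectodysplasin receptor, was higher in scMSC than in DNCB by 0.97 on the log2 scale (adjusted p = 0.00968), within 2-fold, and was named after its values were seen.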
